A study of Mus musculus with 10 samples.

Results

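Described here are 9 mouse genes whose products lengthen, bind or read the poly(A) tails and 3′ untranslated regions (UTRs) of oocyte mRNAs. They are Cpeb1, Cpeb4, Dazl and Pum2, which bind 3′ UTRs, the poly(A) polymerases Papola and Papolg, and the poly(A) binding genes Pabpc1, Pabpc1l and Pabpn1l. The genes were chosen by name, and each was read from all 10 libraries as the sum of its annotated transcripts and transcript by transcript. They are 9 of 35501 genes in the files, and all 9 were among the 11664 genes tested.

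The libraries are single oocytes at metaphase II, where the mature egg pauses until it is fertilised. All came from ICR mice 6 to 8 weeks old, as germinal vesicle oocytes taken from the ovary and matured in culture over 16 h at 37 °C under 5% CO2. In 5 libraries the oocytes had received TubA, 0.1 µg/mL over 16 h, and 5 libraries carry the agent label control, with no vehicle named. TubA is a common short name of tubastatin A, which inhibits the tubulin deacetylase HDAC6, but the labels do not write the name out. No strain other than ICR and no genetic change is labelled in either group. No animal or culture dish is named either, so each n is a number of libraries, and the p-values reflect library-to-library spread alone, part of which may be technical.

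Fully grown oocytes stop transcribing, and their proteins are then set by which stored mRNAs are translated. Many stored mRNAs carry short poly(A) tails, and during maturation CPEB proteins, bound to a cytoplasmic polyadenylation element (CPE) near the AAUAAA hexamer, have those tails lengthened in the cytoplasm. DAZL and the Pumilio proteins bind other 3′ UTR elements of the same kind of mRNAs, and poly(A) binding proteins coat the tails and help start translation. Smart-seq2, the method used, copies RNA from its poly(A) tail, so the amount of an mRNA and how well its tail was captured cannot be told apart in these values. All levels are in TPM, a relative abundance that sums to 1000000 per library. TPM values are scaled per transcript length, but tail capture may differ between genes, so the order of levels between genes is a description. TPM keeps no sequencing depth, and the depth of each library is unknown.

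The libraries fell into 2 sets that cross the treatment, and some genes below follow them. Set A holds control 1, 2 and 3 with TubA 1 and 2, and set B holds control 4 and 5 with TubA 3, 4 and 5. Correlations of log2(TPM + 1) over the genes tested were 0.909 to 0.961 within the sets and 0.861 to 0.942 between them. The sets were found from these same values and are no label of the submitters, so differences between them are given as a description. The summed level of 10 oocyte markers was 28080 to 39074 TPM in the control libraries and 29211 to 39388 TPM in the TubA libraries. H1foo (mean 14302 TPM) and Gdf9 (5965 TPM) were the most abundant of them, and Figla (3.80 TPM) the least. Zp2 ranged from 93.1 to 4518 TPM between libraries. Of 12 cumulus and granulosa markers 1, Cyp19a1, was abundant enough to test, Amh and Foxl2 were at 0 throughout, and the sum was 9.01 to 19.9 TPM. For 8 blood, immune and endothelial markers the sum was 24.9 to 60.2 TPM. Between 10521 and 11698 genes reached 1 TPM per library, and this number did not differ between the groups beyond the spread (exact two-sided permutation test, p = 0.68, adjusted p = 1 over 6 library measures).

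The 3′ end of 1 protein-coding transcript is shown first for 7 of the genes, because the hexamer near the end is where both nuclear and cytoplasmic tail addition are directed. Sequences are from the GENCODE M21 transcripts of GRCm38, the same assembly as mm10, 5′ to 3′ in the sense of the mRNA, with the hexamer AATAAA or ATTAAA in capitals.
Dazl-201: tgtatacacgAATAAAaccttttttt
Cpeb4-203: atgttgaatgAATAAAacttttaact
Pum2-216: cattgtatgaAATAAAcctggtcttg
Papola-212: atgctagactATTAAAtttttgtttg
Pabpc1-201: ttcttgctttAATAAAaattccttaa
Pabpc1l-201: tgctttatatATTAAAaaatgctgca
Pabpn1l-201: aatgtaaattATTAAActtgaatata
All 7 stretches lie in the 3′ UTR, in the last exon of their model. They are at chr17:50279402-50279427 on the minus strand for Dazl (exon 11 of 11) and chr11:31935606-31935631 on the plus strand for Cpeb4 (exon 9 of 9). Those of Pum2 (chr12:8752517-8752542, exon 20 of 20) and Papola (chr12:105834866-105834891, exon 21 of 21) are on the plus strand. Pabpc1 (chr15:36595666-36595691, minus strand, exon 15 of 15), Pabpc1l (chr2:164050507-164050532, plus strand, exon 14 of 14) and Pabpn1l (chr8:122619475-122619500, minus strand, exon 7 of 7) complete the set. The hexamer ends between 12 and 16 bases before the annotated transcript end in 6 of these models, and 49 bases before it in Pum2-216. For Pum2, Papola and Pabpc1l the model shown is not the most abundant one, and Papolg-201 holds no hexamer in its last 150 bases.

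Other letters were searched in the last 150 bases of each annotated transcript, on the sense strand, and a match describes letters only. Of the 27 transcripts of these genes that averaged 1 TPM or more, 15 (55.6%) held the hexamer, against 58.8% of 21823 transcripts of that level in all genes. CPE letters, TTTTAT or TTTTAAT, were in 3 of the 27 (11.1%), against 20.9% of all. The 3 are the minor models Dazl-202, Papola-220 and Pum2-201, and no most abundant transcript of the 9 genes held these letters in this window. The Pumilio letters TGTANATA were in 1 of the 27, against 4.94% of all. DAZL letters, TTTGTT, were in 6 of the 27 (22.2%), against 13.2% of all, and models of the same gene were counted separately. The 6 are Dazl-201 itself, Cpeb4-203, Cpeb4-202, Papola-202, Papola-212 and Papola-219. Cpeb4-203 and Cpeb4-202 hold the same genomic site, and the match of Papola-219 spans a splice junction. The stretches of Dazl-201 and Cpeb4-203 are printed, with the letters in capitals, because both mRNAs encode 3′ UTR binding proteins themselves.
Dazl-201: tgtctgctgtTTTGTTggagtcaagt
Cpeb4-203: aaagagttcaTTTGTTgaagtgctag
They are in the 3′ UTR at chr17:50279521-50279546 on the minus strand and chr11:31935498-31935523 on the plus strand. The matches end 134 and 121 bases before the transcript ends.

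The 9 genes spanned levels from 460.3 TPM to 4.36 TPM, as means over all libraries. Dazl was highest, followed by Papola (402.5 TPM), Cpeb1 (272.3 TPM), Pabpc1l (240.1 TPM) and Pabpn1l (140.0 TPM). Pum2 (55.2 TPM) and Cpeb4 (37.9 TPM) were of middle level, and Pabpc1 (5.54 TPM) and Papolg (4.36 TPM) were low. The somatic poly(A) binding gene Pabpc1 was thus below its oocyte relative Pabpc1l in each library. Between neighbours in this order, the lowest library of Pabpn1l was above the highest of Pum2, and the lowest of Cpeb4 was above the highest of Pabpc1. The other neighbours overlapped: Dazl was above Papola in 7 of 10 libraries, Papola above Cpeb1 in 9, and Pabpc1 above Papolg in 4. Dazl stood at the 97.1th percentile of the genes tested, and Papolg at the 30.0th. These levels sum all models of a gene. In Papola and Pabpc1l, a short processed transcript held 52.7% and 56.8% of the gene's TPM on average.

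**Figure D1:**
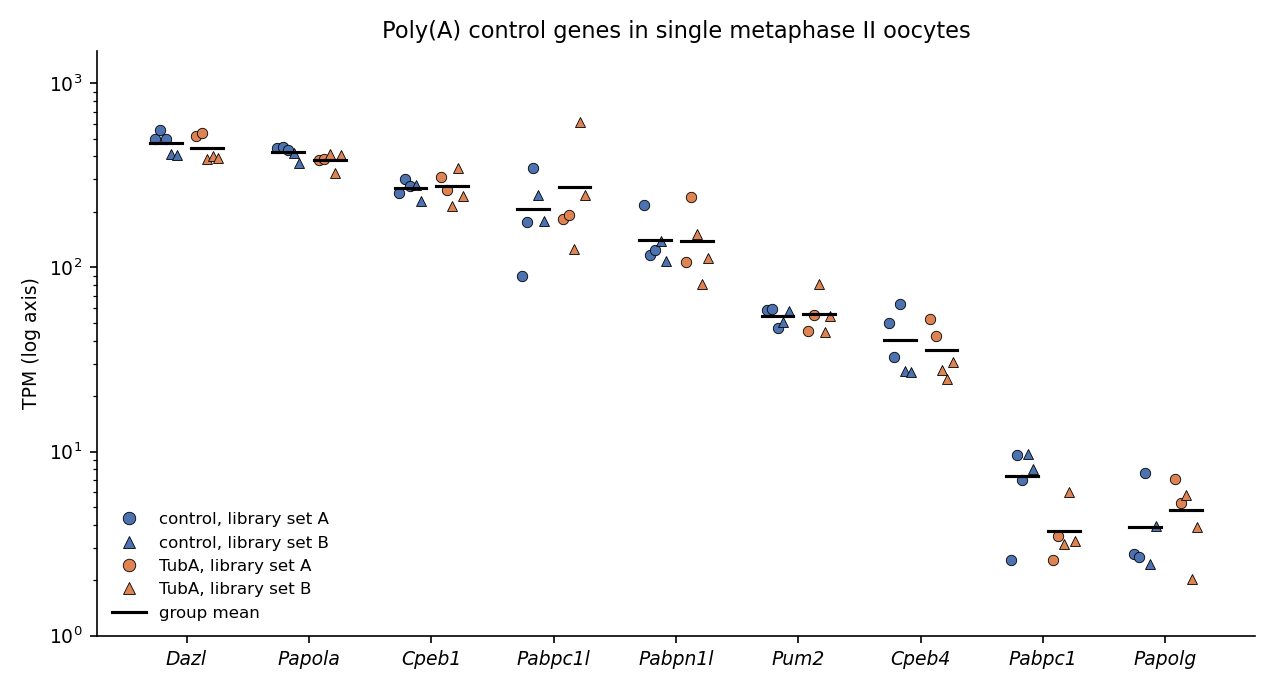
Level of the 9 genes in each library in TPM on a log axis, control in blue and TubA in orange, with circles for library set A, triangles for set B and bars for group means. The control and TubA points overlap for every gene, and Pabpc1l has 1 TubA library at 616.2 TPM.

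In the comparison of TubA with control, 0 of the 9 genes passed the test. The adjusted p of each was 0.9999 (limma on log2(TPM + 1), Benjamini-Hochberg over all genes). Over all genes, 1 of 11664 (0.00857%) passed. At an unadjusted limma p under 0.05 there was 1 gene of the 9, Pabpc1, against 293 of all (2.51%). The groups overlapped for all 9 genes, while 53 of all genes (0.454%) had groups that did not overlap. The median log2 difference, TubA minus control, was -0.08 over the 9 genes, with 4 positive and 5 negative, and 0.0097 over all genes tested. For 6 of the 9 genes, the 95% interval of the difference lay within a 2-fold change in either direction, against 57.0% of all genes. The exceptions were Pabpc1l, Pabpc1 and Papolg.

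**Figure D2:**
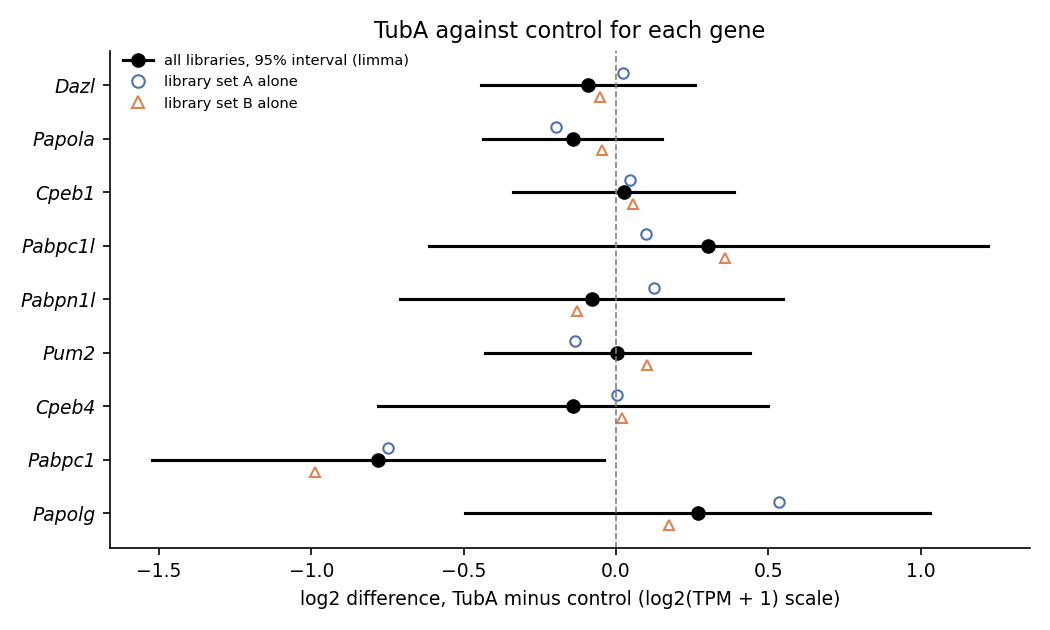
Log2 difference of TubA minus control for each gene on the log2(TPM + 1) scale, with the 95% interval from limma (black) and the values within library set A (blue circles) and set B (orange triangles). The interval of Pabpc1 alone does not reach 0, and its adjusted p is 0.9999.

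Cpeb1 (ENSMUSG00000025586, chr7:81347026-81455465, minus strand) encodes the protein that binds the CPE and holds or lengthens tails during maturation. Its level was 254.4, 301.6, 277.6, 279.3 and 229.1 TPM in control 1 to 5, and 309.6, 264.5, 214.3, 347.7 and 244.5 TPM in TubA 1 to 5. The highest and the lowest library were both treated, and the control values lay between them. The means were 268 ± 27.6 TPM (SD, n = 5) and 276 ± 52.9 TPM (SD, n = 5). The log2 difference was 0.03 (SE 0.17, 95% interval -0.34 to 0.39), that is 0.79-fold to 1.31-fold.

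Cpeb1 mRNA was divided mainly between models that share their 3′ end and differ at the 5′ end and in an inner exon. Cpeb1-201 (3111 bases, 12 exons) averaged 140.5 TPM and Cpeb1-203 (2969 bases, 11 exons) 119.2 TPM. Their 3′ ends are 2 bases apart, while their starts are 18381 bases apart and 9 exons are identical. Exon 7 of Cpeb1-201 ends 98.571 kb from the gene start, and the matching exon 6 of Cpeb1-203 ends at 98.556 kb. Their coding lengths are 1683 and 1653 bases. The share of Cpeb1-201 in the gene ranged from 40.9% to 62.3%. It was 50.3 ± 8.76% in control and 52.9 ± 8.06% in TubA (SD, n = 5 each; exact two-sided permutation test, p = 0.63, adjusted p = 0.87 over 9 genes). TubA minus control was 12.4 percentage points in set A and -9.02 points in set B, and this contrast between the sets was not tested. The shorter model Cpeb1-209 was 8.98 to 22.4 TPM in set A and 3.98 to 7.54 TPM in set B, with no overlap, while the gene's sum overlapped between the sets.

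Cpeb4 (ENSMUSG00000020300, chr11:31872211-31935634, plus strand) encodes a relative of CPEB1 that acts on CPE mRNAs late in meiosis. It was at 50.1, 32.8, 63.3, 27.5 and 27.0 TPM in control 1 to 5, and at 52.1, 42.6, 27.8, 24.7 and 30.7 TPM in TubA 1 to 5. The 5 libraries of set A (32.8 to 63.3 TPM) were all above the 5 of set B (24.7 to 30.7 TPM), while control and TubA overlapped. The group means were 40.1 ± 16.0 TPM and 35.6 ± 11.5 TPM (SD, n = 5 each). The log2 difference was -0.14 (SE 0.29, 95% interval -0.78 to 0.50) and became 0.01 when the fit included the set.

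Within Cpeb4, the short model was the one whose values did not overlap between the sets. Cpeb4-201 (2312 bases) ends 4057 bases upstream of Cpeb4-203 (5281 bases) and lacks the 3′ stretches printed above. The coding length is greater in Cpeb4-201, at 2187 bases against 1176 in Cpeb4-203, which starts 1064 bases further downstream. Cpeb4-201 was 11.5 to 37.5 TPM in set A and 4.36 to 10.9 TPM in set B, with no overlap. Cpeb4-203 was 21.3 to 31.1 TPM in set A and 16.4 to 22.8 TPM in set B, so its range was lower in set B too, but these ranges overlap. Of the 9 exons of Cpeb4-203, 7 are identical to exons of Cpeb4-201, so short reads from them fit both models. The share of Cpeb4-203 was 64.3 ± 16.5% in control and 64.4 ± 11.9% in TubA (SD, n = 5 each; exact permutation test, p = 0.98), with 38.5% in control 3 and 82.9% in control 4 at the ends. A further long model, Cpeb4-202, averaged 1.10 TPM and had a log2 difference of 0.99 (SE 0.45, unadjusted limma p = 0.0496, exact permutation p = 0.0556, limma p adjusted over all transcripts 0.999998).

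Dazl (ENSMUSG00000010592, chr17:50279395-50293636, minus strand) encodes a germ cell RNA-binding protein that promotes translation of stored mRNAs in the maturing oocyte. Its level was 498.5, 556.6, 499.6, 411.3 and 405.1 TPM in control 1 to 5. In TubA 1 to 5 it was 517.3, 534.5, 386.2, 403.7 and 390.2 TPM. All 5 set A libraries (498.5 to 556.6 TPM) were above all 5 set B libraries (386.2 to 411.3 TPM), while control and TubA overlapped. Dazl and Cpeb4 were the 2 of 9 genes with every set A library above every set B library, and 0 of 9 had the opposite order. Over all genes tested, 344 (2.95%) had this order, and 600 (5.14%) had sets that did not overlap in either direction.

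The Dazl means were 474 ± 64.7 TPM in control and 446 ± 73.2 TPM in TubA (SD, n = 5 each), with a log2 difference of -0.09 (SE 0.16, 95% interval -0.44 to 0.26). Within the sets the difference was 0.02 (A) and -0.05 (B), and it was -0.02 when the fit included the set. Nearly all of the gene's TPM was in Dazl-201 (2976 bases, 11 exons), at 98.0 ± 0.50% in control and 98.6 ± 0.30% in TubA (exact permutation test, p = 0.0714, adjusted p = 0.32 over 9 genes). The minor model Dazl-202 (600 bases) averaged 7.18 TPM. The gene whose pattern over the 10 libraries was most like that of Dazl was Rnaseh1 (Pearson r = 0.98, n = 10 libraries, among 6209 genes compared), at 92.9 to 121 TPM in set A and 40.1 to 56.3 TPM in set B. Tex15 and the pseudogene Rps2-ps10 followed (r = 0.97 each), and for all of them the points fall into the 2 sets.

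Pum2 (ENSMUSG00000020594, chr12:8674134-8752581, plus strand) encodes a Pumilio protein, a sequence-specific repressor of mRNAs. It was at 58.3, 59.4, 46.8, 50.7 and 57.7 TPM in control 1 to 5, and at 44.9, 54.8, 80.8, 44.6 and 54.2 TPM in TubA 1 to 5. Apart from TubA 3 at 80.8 TPM, the libraries lay within 44.6 to 59.4 TPM. The means were 54.6 ± 5.55 TPM and 55.9 ± 14.8 TPM (SD, n = 5 each), and the log2 difference was 0.0042 (SE 0.20, 95% interval -0.43 to 0.44).

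The TPM of Pum2 was divided between models with proximal and distal annotated 3′ ends, 2553 bases apart as counted from Pum2-210 and Pum2-216. Of the 20 exons of each of these models, 18 are identical, so short reads from them fit both. The models with the distal end, which hold the hexamer printed above (Pum2-216 and Pum2-202), made up between 4.48% (TubA 2) and 48.8% (TubA 4) of the gene. Their median share was 18.5%, and the share was 26.6 ± 10.7% in control and 18.8 ± 17.3% in TubA (SD, n = 5 each). The models with the proximal end (Pum2-210, Pum2-204 and Pum2-201) made up 47.1% to 90.7%. The ends were grouped after the values were seen, so no test is given for them. For the most abundant model, Pum2-210, the share was 54.4 ± 8.27% in control and 58.0 ± 17.2% in TubA (exact permutation test, p = 0.67, adjusted p = 0.87 over 9 genes).

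**Figure D3:**
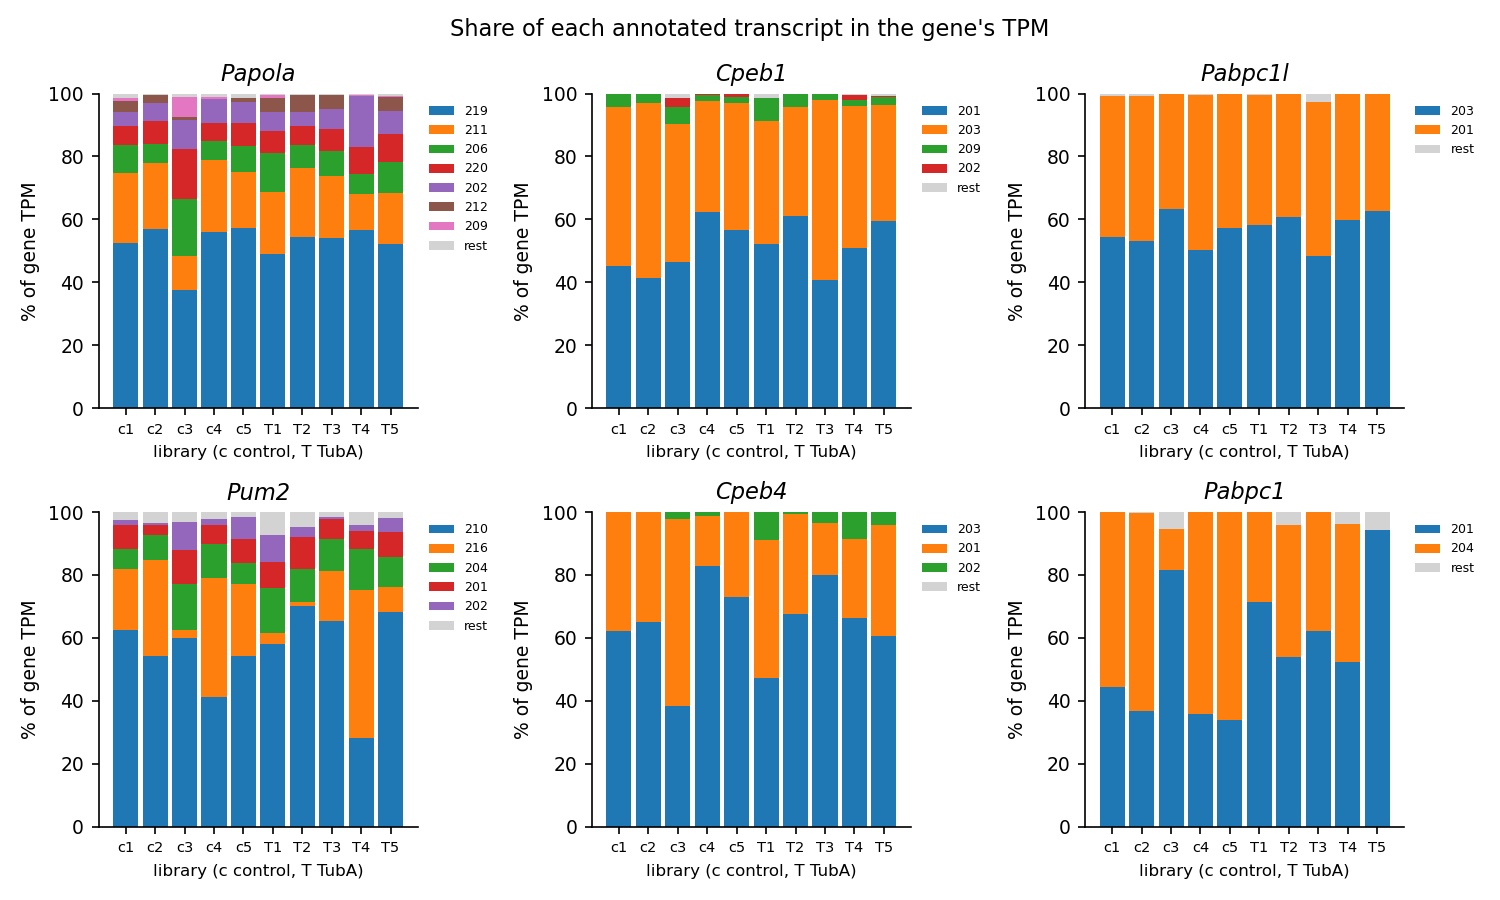
Share of each annotated transcript in the TPM of 6 of the genes, in percent, by library (c1 to c5 control, T1 to T5 TubA), with the legend giving the transcript number of each colour. Control 3 has the smallest share of Papola-219 (37.7%), and TubA 4 the smallest share of Pum2-210 (28.4%).

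Papola (ENSMUSG00000021111, chr12:105784694-105838944, plus strand) encodes the main nuclear poly(A) polymerase, which adds the tail to newly made mRNA. Its level was 446.5, 447.8, 431.4, 416.4 and 367.8 TPM in control 1 to 5, and 382.8, 387.1, 413.2, 326.2 and 405.3 TPM in TubA 1 to 5. The 4 highest values were all control libraries, and the control value of 367.8 TPM was below 4 of the 5 treated ones. The means were 422 ± 32.9 TPM and 383 ± 34.1 TPM (SD, n = 5 each). The log2 difference was -0.14 (SE 0.14, 95% interval -0.43 to 0.15), and an exact two-sided permutation test gave p = 0.111 (adjusted p = 0.50 over the 9 genes).

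Papola varied less between libraries than most genes of its level. Its SD within groups on the log2 scale was 0.13, at the 1.15th percentile of 695 genes within 2-fold of its mean. Its difference of -0.14 corresponds to an interval of 0.74-fold to 1.11-fold. The difference was -0.20 in set A and -0.04 in set B. The genes with the pattern most like Papola were Rap1a (Pearson r = 0.90), Ube2k (0.88) and Tmem39b (0.87), over 10 libraries. For Cpeb1 they were Oas1h (0.95), Cog4 (0.94) and 9130409I23Rik (0.93).

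The TPM of Papola was mostly in models that end far upstream of the full gene. Papola-219, a processed transcript of 726 bases and 8 exons with no annotated coding frame, averaged 211.5 TPM, and Papola-211, a protein-coding model of 1033 bases and 9 exons, averaged 74.4 TPM. Both end in an exon that starts at chr12:105809524 and extends to 105809547 and 105809709. These ends are 29260 and 29098 bases upstream of the end of Papola-202, the full-length model of 4380 bases and 22 exons, which averaged 29.1 TPM. Of their exons, 6 of 8 and 7 of 9 are identical to exons of Papola-202, so short reads from them fit several models. Papola-206 (36.9 TPM) and Papola-220 (32.1 TPM) cover later exons only.

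The upstream end of Papola-211 is shown because it carries its own hexamer and the only Pumilio letters among the 27 transcripts, each in capitals.
Papola-211 hexamer: attatattacAATAAAattgattgta
Papola-211 Pumilio: atcaactctTGTACATAaatttttct
They lie at chr12:105809675-105809700 and chr12:105809621-105809646 on the plus strand, in exon 9 of 9. The annotation counts both as coding, with the stop codon at the end of the model. The hexamer ends 19 bases and the Pumilio letters 72 bases before the annotated end. Papola-219, which averaged 211.5 TPM against 74.4 TPM for Papola-211, ends at chr12:105809547, before both stretches. No hexamer was found in the searched window of Papola-219. Papola-202 holds a hexamer 113 bases before its own annotated end, and Papola-212, the other model that spans the gene, holds the one printed with the 3′ ends.

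**Figure D4:**
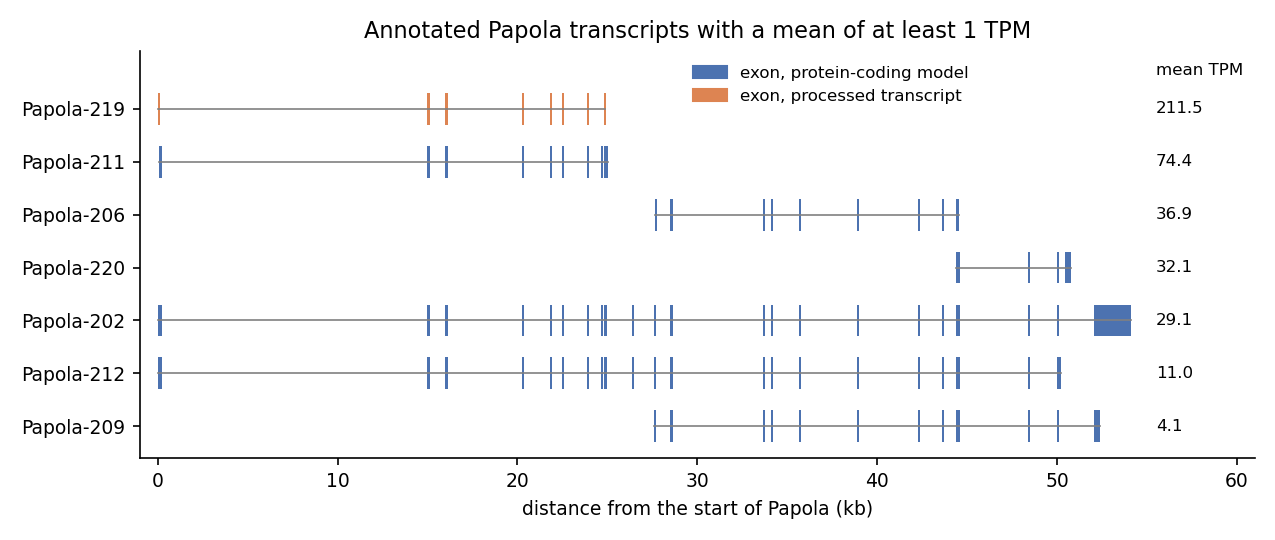
Exons (bars) and introns (lines) of the 7 Papola models with a mean of at least 1 TPM, by distance from the start of Papola-202 in kb, with the mean TPM over 10 libraries at the right. The 2 most abundant models, at 211.5 and 74.4 TPM, end about midway through the gene.

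Together, Papola-219 and Papola-211 made up 74.7, 77.8, 48.5, 78.8 and 75.2% of Papola in control 1 to 5, and 68.7, 76.4, 73.9, 68.0 and 68.5% in TubA 1 to 5. Control 3 was the exception, with Papola-206 at 78.3 TPM and Papola-220 at 67.5 TPM in that library. The full-span models Papola-202 and Papola-212 made up 7.78% to 10.2% in control and 9.84% to 16.0% in TubA, at 35.6 ± 5.31 TPM and 44.5 ± 5.63 TPM (SD, n = 5 each). These ranges of the share overlap, and no test is given because the models were grouped after their values were seen. Between the full-span models, Papola-212 was 0.000930 TPM in control 4, was listed at 0 in TubA 4, and was 4.01 to 20.8 TPM in the other libraries. The share of Papola-219 alone was 52.2 ± 8.29% in control and 53.2 ± 2.83% in TubA (SD, n = 5 each; exact permutation test, p = 0.91, adjusted p = 0.98).

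TPM divides reads by length, so a short model takes a larger share in TPM than in sequence read. When each Papola model was weighted by its annotated length, an alternative chosen after seeing the data, the upstream-ending models took 50.9% on average (31.7% to 59.5% by library). The full-span models then took 33.8% (26.1% to 51.1%). On both scales the mean share of the upstream-ending models was above that of the full-span models.

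Papolg (ENSMUSG00000020273, chr11:23862646-23895253, minus strand) encodes a second nuclear poly(A) polymerase. It was at 2.77, 2.67, 7.65, 2.45 and 3.93 TPM in control 1 to 5, and at 7.11, 5.28, 5.81, 2.02 and 3.91 TPM in TubA 1 to 5. The highest value was control 3 and the lowest TubA 4, and 3 of the 5 TubA libraries exceeded the other 4 controls. The means were 3.89 ± 2.18 TPM and 4.83 ± 1.94 TPM (SD, n = 5 each), with a log2 difference of 0.27 (SE 0.35, 95% interval -0.50 to 1.03). Papolg-201 (3747 bases, 22 exons) held 85.7 ± 19.5% of the gene in control and 99.5 ± 0.45% in TubA (exact permutation test, p = 0.143, adjusted p = 0.32). Control 4 and 5, both of set B, were at 55.3% and 76.8%, while control 1 to 3 were at 96.5% to 100%.

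Pabpc1 (ENSMUSG00000022283, chr15:36595661-36609668, minus strand) encodes the cytoplasmic poly(A) binding protein of somatic cells. It was at 2.59, 9.58, 7.0, 9.73 and 8.08 TPM in control 1 to 5, and at 2.59, 3.46, 3.15, 6.02 and 3.25 TPM in TubA 1 to 5. Control 1 was as low as the lowest treated library, and the other 4 controls were above all 5 treated ones. The means were 7.40 ± 2.91 TPM and 3.69 ± 1.34 TPM (SD, n = 5 each). The log2 difference was -0.78 (SE 0.34, 95% interval -1.52 to -0.04), with an unadjusted limma p of 0.041 and an adjusted p of 0.9999. An exact permutation test gave p = 0.0635 (adjusted p = 0.50 over the 9 genes). In set A it was -0.75, and in set B -0.99.

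Pabpc1 was read mainly from 2 of its transcripts. Pabpc1-204, a model of 725 bases annotated as a retained intron, was at 1.44, 6.05, 0.91, 6.23 and 5.34 TPM in control 1 to 5, and at 0.74, 1.45, 1.19, 2.64 and 0.00 TPM in TubA 1 to 5. Its log2 difference was -1.09 (SE 0.49, unadjusted limma p = 0.045, exact permutation p = 0.0794, adjusted limma p 0.999998). For the full coding mRNA Pabpc1-201 (2817 bases, 15 exons), the means were 3.32 ± 1.64 TPM and 2.38 ± 0.67 TPM (SD, n = 5 each). Its log2 difference was -0.28 (SE 0.34, unadjusted limma p = 0.41, exact permutation p = 0.349), and that of the gene was -0.27 when protein-coding transcripts alone were summed. The share of Pabpc1-201 was 46.5 ± 19.9% in control and 66.9 ± 17.1% in TubA (exact permutation test, p = 0.143, adjusted p = 0.32). Over all genes, retained-intron models held 4.51 ± 0.10% of TPM in control and 4.51 ± 0.11% in TubA. Of the words of 31 bases in Pabpc1, 11.9% also occur in another listed gene, and this was the highest such share of the 9 genes, so part of its reads may be divided with copies.

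Pabpc1l (ENSMUSG00000054582, chr2:164025450-164050538, plus strand) encodes the poly(A) binding protein of oocytes and early embryos, which female fertility in mice requires. It was at 90.0, 175.4, 344.4, 246.2 and 177.5 TPM in control 1 to 5, and at 184.1, 193.2, 126.0, 616.2 and 247.8 TPM in TubA 1 to 5. TubA 4 was the highest library and control 3 the next, and control 1 was the lowest, so the extremes were spread over both groups. The highest value was 6.85 times the lowest, the widest range of the 9 genes. The SD within groups was at the 91.4th percentile of 1044 genes within 2-fold of its level.

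The Pabpc1l means were 207 ± 94.8 TPM and 273 ± 196 TPM (SD, n = 5 each), with a log2 difference of 0.30 (SE 0.42, 95% interval -0.61 to 1.22). Without TubA 4 the difference was -0.05. TubA 4 and control 3 were also the libraries with the most genes at 1 TPM or more (11698 and 11677, against at most 11471 in the others). The part of this measure in the Pabpc1l values was not tested. Both main models ranged widely: Pabpc1l-203, a processed transcript of 617 bases, was 49.1 to 369.0 TPM, and the coding mRNA Pabpc1l-201 (2354 bases, 14 exons) was 40.3 to 245.8 TPM. Of the 6 exons of Pabpc1l-203, 4 are identical to exons of Pabpc1l-201. Short reads from them fit both models, so the values of the models are not independent and their shares depend on how such reads were divided. The share of Pabpc1l-203 was 55.7 ± 4.92% in control and 58.0 ± 5.64% in TubA (SD, n = 5 each; exact permutation test, p = 0.49, adjusted p = 0.87).

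Pabpn1l (ENSMUSG00000069867, chr8:122619471-122622739, minus strand) encodes a germline relative of the nuclear poly(A) binding protein with a role in clearing maternal mRNA. It was at 218.0, 117.2, 124.4, 138.4 and 108.0 TPM in control 1 to 5, and at 107.1, 240.5, 152.1, 81.5 and 112.6 TPM in TubA 1 to 5. Control 1 and TubA 2, both of set A, stood above the other 8 libraries, which lay between 81.5 and 152.1 TPM. The rest of set A was at 107.1 to 124.4 TPM. Control 1 and TubA 2 were also the libraries with the fewest genes at 1 TPM or more (10521 and 10714, against at least 10838 in the others). The part of this measure in the Pabpn1l values was not tested. The means were 141 ± 44.3 TPM and 139 ± 62.2 TPM (SD, n = 5 each), and the log2 difference was -0.08 (SE 0.29, 95% interval -0.71 to 0.55). Pabpn1l-201 (1148 bases, 7 exons) held 99.4 ± 0.47% of the gene in control and 99.9 ± 0.11% in TubA (exact permutation test, p = 0.0317, adjusted p = 0.286 over 9 genes). The annotation places Gm20388, at a mean of 4.35 TPM, on the opposite strand over the span of Pabpn1l. Read on either strand, 0% of the words of 31 bases in Pabpn1l occur in another listed gene.

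At the level of transcripts, 75 of the 9 genes are in the files, 59 were listed above 0 and 27 reached the mean of 1 TPM needed for the test. Of the 27, 0 passed (limma, Benjamini-Hochberg over 21838 transcripts), against 1 of all (0.00458%). At an unadjusted limma p under 0.05 there were 2 of the 27, Pabpc1-204 and Cpeb4-202, against 3.15% of all. No transcript of the 27 had groups that did not overlap, against 0.467% of all. The log2 difference was positive in 11 of the 27 and negative in 16.

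Correlations between the 9 genes across the libraries had both signs. Of 36 pairs, the lowest Pearson correlation of log2(TPM + 1) over 10 libraries was -0.77, between Cpeb1 and Pum2, and it was -0.42 in set A and -0.85 in set B. The highest was 0.72, between Dazl and Cpeb4, where the points fall into the 2 sets, and within the sets it was -0.92 and -0.52. Cpeb1 and Pabpc1l had 0.63. These values are a description over libraries that share a scale, since TPM sums to the same total in each.

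**Figure D5:**
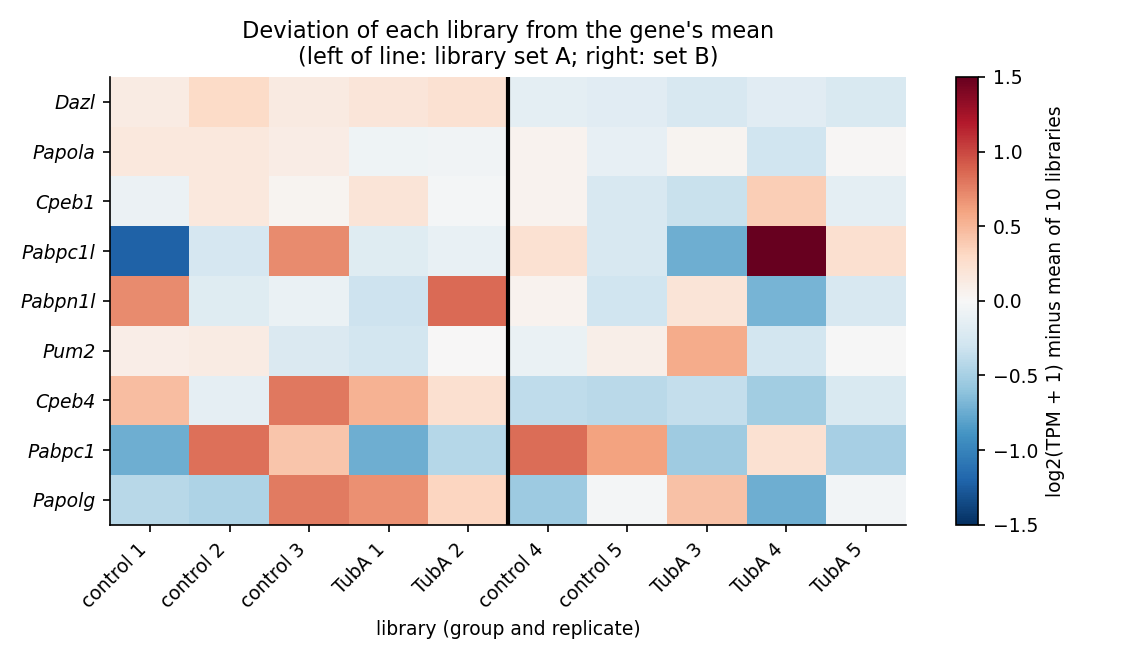
Deviation of each library from the mean of 10 libraries for each gene, in log2(TPM + 1) units, with library set A to the left of the line and set B to the right. Dazl and Cpeb4 are lower throughout set B (Dazl 386.2 to 411.3 TPM), and Pabpc1l is highest in TubA 4.

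Other genes of the pathway were read from lists, and 0 genes of any list passed the test (limma, adjusted p 0.9999 for each gene named here). Of 16 tested genes of nuclear cleavage and polyadenylation (19 listed), 8 were positive and 8 negative, with a median log2 difference of -0.03. Wdr33, a subunit that helps read the hexamer, was at 803 ± 85.1 TPM in control and 827 ± 159 TPM in TubA, and Fip1l1, a partner of the polymerase, at 227 ± 20.6 and 251 ± 46.0 TPM (SD, n = 5 each). Of 9 other poly(A) and uridyl polymerases (11 listed), 5 were positive and 4 negative, with a median of 0.01. Tent4a was at 164 ± 32.6 and 165 ± 31.6 TPM, and Tent2, the cytoplasmic poly(A) polymerase also called GLD2, at 128 ± 10.8 and 109 ± 21.9 TPM.

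Of 10 tested relatives and partners of CPEB (11 listed), 5 were positive and 5 negative, with a median of 0.02. Aurka, a kinase reported to act on CPEB1, was at 307 ± 46.1 and 327 ± 80.4 TPM, and Eif4enif1, which binds the cap-binding protein, at 232 ± 33.7 and 295 ± 85.2 TPM. Of 6 relatives and partners of DAZL and PUM (8 listed), 3 were positive and 3 negative, with a median of 0.00095. Dazap2 was at 558 ± 76.8 and 549 ± 98.0 TPM, and Nanos1, a partner of Pumilio proteins, at 23.3 ± 7.93 and 28.0 ± 11.3 TPM. Of 11 poly(A) binding relatives and partners (15 listed), 7 were positive and 4 negative, with a median of 0.05. Paip1, which binds poly(A) binding protein and favours translation, was at 453 ± 81.7 and 469 ± 87.0 TPM, and its antagonist Paip2 at 233 ± 146 and 338 ± 247 TPM.

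Of 11 mRNAs known as CPE or DAZL targets in maturing oocytes, all tested, 6 were positive and 5 negative, with a median of 0.02. Btg4, an adaptor in maternal mRNA decay, was at 10333 ± 2156 TPM in control and 9972 ± 2371 TPM in TubA. Plat, a classic CPE mRNA, was at 2521 ± 531 TPM in control and 2541 ± 437 TPM in TubA (SD, n = 5 each). Over the lists, 3 of 63 tested genes (4.76%) had an unadjusted limma p under 0.05, against 2.51% of all genes, and they are named after their values were seen. Msi2, which encodes a Musashi RNA-binding protein, was at 19.6 ± 9.30 and 6.13 ± 6.64 TPM (log2 difference -1.91, limma p = 0.0087, exact permutation p = 0.0476). Nanos2 was at 29.2 ± 6.62 and 17.2 ± 5.35 TPM (log2 difference -0.75, limma p = 0.0096, exact permutation p = 0.0238). Tex19.1, a DAZL target, was at 98.2 ± 8.58 and 66.6 ± 18.0 TPM (limma p = 0.016), and its groups did not overlap (exact permutation p = 0.0079, the smallest this design can give). It was the 1 gene of the 63 (1.59%) without overlap, against 0.454% of all genes.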

How the data were processed

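Single metaphase II oocytes were amplified with Smart-seq2, per the labels' protocols. Bowtie 0.12.2 and the build mm10 are named per the submitters' processing notes, while the program behind the abundances, with its annotation, was not given in the sources used here. Deposited values, made by the authors, are TPM for each Ensembl transcript, and each library sums to 1000000. Strand is not stated.

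Transcripts were summed to genes with GENCODE M21 (GRCm38) in Python 3.11.15 with pandas 2.3.3, and 113492 of 115270 matched. The test was limma 3.58.1 in R 4.3.3 on log2(TPM + 1), with trend and robust moderation, for genes (11664) or transcripts (21838) with a mean of at least 1 TPM, with Benjamini-Hochberg adjustment at 0.05 and no covariate. The fit was tested on simulated data. Shares were compared by exact two-sided permutation over 252 assignments with scipy 1.17.1. Sets A and B came from complete-linkage clustering. The 9 genes and the lists were chosen with earlier results of these data known. Named are the 9 genes, their leading transcripts, the 2 most abundant genes per list and the 3 genes most like Dazl, Papola and Cpeb1 (at least 10 TPM). Alternatives were other pseudocounts, filters, scalings, weights, a replicate block, the sets, protein-coding transcripts alone and leaving out each library. One sequence is not reported here.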

Additional observations from a re-analysis of the deposited data

Results flagged for a closer look

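Each group of 5 libraries was examined for a library that stands apart, as a gap to its neighbour of more than 0.71 of the group's range. This was done for the level and the leading share of each gene, 36 groups in all. Chance marks about 1 in 20 groups of normally distributed values, and 8 of 36 were marked, in 4 different libraries. Levels were taken in TPM and not on the log2 scale of the test, and shares in percent. The rate of 1 in 20 need not hold on these scales, so the marks are a description. Control 3 had a Papola-219 share of 37.7% where the other controls had 52.6% to 57.4%, a Pabpc1-201 share of 81.4% against 33.9% to 44.6%, and Papolg at 7.65 TPM against 2.45 to 3.93 TPM. TubA 4 had Pabpc1l at 616.2 TPM where the other treated libraries had 126.0 to 247.8 TPM. In the same library Pabpc1 was at 6.02 TPM against 2.59 to 3.46 TPM, and the Pum2-210 share was 28.4% against 58.1% to 70.1%. Control 1 had Pabpn1l at 218.0 TPM against 108.0 to 138.4 TPM in the other controls. TubA 3 had Pum2 at 80.8 TPM against 44.6 to 54.8 TPM in the other treated libraries.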

How the results depend on the processing

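The count of the 9 genes that passed (limma, Benjamini-Hochberg) was 0 under all 23 alternatives, with 0 or 1 of them at an unadjusted p under 0.05, and the lowest adjusted p of any of the 9 was 0.897, for Pabpc1. The count of their transcripts that passed was 0 under all 22 alternatives run for transcripts. Over all genes, the single call was lost (0 calls) with a pseudocount of 10, a mean of at least 5 TPM, the replicate block, set B alone and protein-coding transcripts alone, where 288, 166, 313, 208 and 242 genes had an unadjusted p under 0.05. Set A alone, with 3 against 2 libraries, gave 12. For transcripts the same settings gave 0 as well, other than set A alone with 23 and protein-coding transcripts alone, which was run for genes only, and leaving out each library gave 0 to 2 (1 in each case for genes). The replicate numbers do not pair the libraries, and not every library correlated best with its own number. Same-numbered deviations correlated at 0.00308, -0.00484, -0.308, 0.476 and 0.258. The replicate block gave 0 calls. Each number has 1 library per group, so the block leaves every log2 difference unchanged by design and could turn no direction.

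Some directions turned, none of them of a result that passed the test. The log2 difference of Dazl was 0.0229 in set A. That of Cpeb1 was -0.0430 with array weights, and -0.0621 to 0.112 when each library was left out. For Pabpc1l it was -0.0464 to 0.524 when each library was left out. For Pabpn1l it was 0.0797 with array weights, 0.126 in set A and -0.302 to 0.0880 with libraries left out. For Pum2 it was -0.0246 with quantile normalisation, -0.0169 with the set as a term, -0.134 in set A, -0.0028 with protein-coding transcripts alone and -0.136 to 0.0748 with libraries left out. For Cpeb4 it was 0.0721 with array weights, 0.0111 with the set as a term, 0.0029 in set A, 0.0194 in set B and -0.289 to 0.0410 with libraries left out. Papola, Pabpc1 and Papolg kept their sign under every alternative run, and Pabpc1 ranged from -1.06 to -0.67 with libraries left out. The shares turned in percentage points for Papola (-2.54 to 2.37 with libraries left out, -2.48 in set B, -1.30 when weighted by length), Cpeb4 (-6.34 to 4.74 with libraries left out, -8.91 in set B, -2.45 when weighted by length) and Pabpc1 (-1.30 among protein-coding transcripts). Among protein-coding transcripts the leading Papola model was Papola-211. Its share differed by -3.51 points, which is no turn of the Papola-219 share. Shares that moved were Cpeb1 (12.4 in set A, -9.02 in set B), Papolg (33.7 in set B) and Dazl (0.154 when weighted by length). Weighting by length was chosen after seeing the data. The cause of these changes was not tested. No gene shared 20% of its words with 1 other gene, so summing with copies gave no value, and Papolg has no value at a mean of at least 5 TPM. Depth is unknown, and the precision is that of 5 libraries per group.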
